A study of Mus musculus with 21 samples.

Results

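Antiviral interferon-stimulated genes were followed across 2 mouse mammary fibroblast lines given siRNA against 1 or the other of the 2 cytosolic HSP90 chaperones, or control siRNA. The 47 genes were taken by name from a table of 45706 genes, all 47 were in the table, and all 47 passed the filter on low counts that left 15230 genes for testing. They were grouped by function into sensors, IFIT proteins, OAS enzymes, restriction effectors, double-stranded RNA enzymes, the ISG15 system, PARP proteins, TRIM proteins, lectins and death-linked genes, and nuclear genes. The genes were picked with it already known that they move in opposite directions with the 2 knockdowns in normal fibroblasts, so their counts in those comparisons describe them and support nothing on their own.

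The carcinoma-associated line (CAF) came from a mammary tumour of an MMTV-PyMT mouse, in which a viral oncogene is expressed in the mammary epithelium, and the normal line (NF) came from a healthy FVB/n mammary gland. All 7 groups were grown in the same high-glucose medium with 10% serum, transfected with 100 nM siRNA, and harvested for RNA after 48 h, with 3 libraries each. Of the CAF groups, all on vehicle (Vh), one received a pool of siRNAs against Hsp90aa1 (siHsp90aa1), one a pool against Hsp90ab1 (siHsp90ab1) and one control siRNA (siCtr). The NF groups were siHsp90aa1, siHsp90ab1 and siCtr, each with TGFb1 at 5 ng/mL from 5 h after transfection, and siCtr on vehicle. Neither an NF knockdown on vehicle nor a CAF group with TGFb1 was among them. Every group is a single line, so a difference between the lines cannot be told apart from a difference between their sources, and the loss of a target cannot be told apart from other effects of its siRNA pool. The labels give each library a batch number (first, second or the third library of a group below) but do not say whether the libraries came from separate cultures, so every test below rests on how far these libraries vary, which may be technical only.

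Interferon-stimulated genes are the transcriptional output of type I and type III interferons. Cells that sense viral nucleic acid through RIG-I-like or Toll-like receptors make interferon beta, which binds its receptor, activates the kinases JAK1 and TYK2, and leads STAT and IRF proteins to DNA elements called ISREs. Many of the genes encode the sensors and STAT proteins themselves, so that the programme feeds back on itself. HSP90 chaperones fold many kinases and other signalling proteins, and Hsp90aa1 encodes the inducible isoform and Hsp90ab1 the constitutive one.

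The libraries held totals of 35.1 to 70.4 M estimated counts (M, 1e6 counts) assigned to genes. Hsp90aa1 stood at 40.2 to 120 counts-per-million (CPM) in siHsp90aa1 NF, against 543 to 671 CPM in siCtr NF with TGFb1, and at 58.1 to 122 CPM in siHsp90aa1 CAF, against 726 to 995 CPM in siCtr CAF. Hsp90ab1 stood at 327 to 623 CPM in siHsp90ab1 NF, against 3120 to 3782 CPM in siCtr NF with TGFb1, and at 166 to 315 CPM in siHsp90ab1 CAF, against 2370 to 2536 CPM in siCtr CAF. In siHsp90ab1 libraries Hsp90aa1 was also below all these siCtr libraries, at 253 to 327 CPM in NF and 324 to 479 CPM in CAF. Its log2 fold changes there were -1.05 in NF (SE 0.30, edgeR adjusted p = 0.0722) and -1.07 in CAF (SE 0.30, adjusted p = 0.123). The 9 fibroblast markers summed to 17488 to 23913 transcripts-per-million (TPM) in CAF and 3618 to 10022 TPM in NF. Thy1, a fibroblast surface marker, averaged at most 0.33 TPM in any NF group, against 222 to 267 TPM in the CAF groups. Fap held 34, 17 and 65 counts in siCtr CAF and 4, 5 and 7 in siCtr NF on vehicle. Dcn went the other way, with 1271, 356 and 1109 counts against 27635, 14878 and 20961. Of the 5 lymphoid markers Cd3e and Cd3g were at 0 in every library and the list summed to at most 0.336 TPM. The 8 myeloid markers had Tyrobp at 0 and Ptprc, Adgre1, Itgam and Lyz2 under 1 TPM, and their sums did not overlap between siHsp90aa1 and control. In NF they summed to 3.85 to 5.05 TPM with siHsp90aa1, against 5.79 to 6.27 TPM with siCtr and TGFb1. In CAF they summed to 3.49 to 4.99 TPM with siHsp90aa1, against 5.21 to 6.99 TPM with siCtr. Of all tested genes 22.5% in NF and 19.5% in CAF separated as lower with siHsp90aa1. The markers did not move alike. In NF Cd68 held 49, 64 and 29 counts with siHsp90aa1 and 74, 88 and 64 with siCtr and TGFb1. Csf1r there held 265, 320 and 190 counts against 178, 302 and 186. The part of these small sums in the results was not tested. The 7 epithelial markers summed to 7.19 to 34.7 TPM in CAF and 0.538 to 1.72 TPM in NF. Krt19 alone made nearly all of the CAF sum (6.06 to 34.5 TPM), with Epcam, Cdh1, Krt8, Krt18 and Krt5 under 1 TPM in every library. These are bulk libraries, in which fewer cells expressing a gene and less RNA per cell cannot be told apart. The first siHsp90aa1 CAF library stood apart for the antiviral genes, and its knockdown results are given with and without it.

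Promoter sequence was matched for 35 of the 47 genes in RefSeq (GRCm38.p6), and the core of the interferon element, GAAANNGAAA, was searched on both strands over the 250 bases before each start. The core was present in 12 of the 35 promoters (34.3%) and in 617 of all 20592 promoters (3%). The 12 genes were Ifit1, Ifit3, Ifit3b, Oas1a, Oas3, Rsad2, Bst2, Isg15, Parp11, Trim30a, Trim30d and Lgals9. The GAS element TTCNNNGAA was present in 5 of the 35 (14.3%) and in 1400 of all promoters (6.8%), and both elements, in places overlapping, in 3 of the 35 (8.57%) and 84 of all promoters (0.408%). A match describes the letters and is not evidence of a bound site. Stretches from 6 promoters are shown to let the element be compared across functions, each from the most abundant gene with the core in its functional group. Each runs 5′ to 3′ along the gene's own strand, with every copy of the core, in either orientation, in capitals. The Ifit1 stretch is chr19:34640755-34640843 on the plus strand, with 2 separate copies; the Oas1a stretch is chr5:120907526-120907575 on the minus strand, with 2 overlapping copies; and the Bst2 stretch is chr8:71537557-71537632 on the minus strand, with 2 overlapping copies. The Isg15 stretch is chr4:156200845-156200926 on the minus strand, with 3 overlapping copies. The Parp11 stretch is chr6:127446766-127446835 on the plus strand and the Trim30a stretch chr7:104465194-104465259 on the minus strand, each with 1 copy.
Ifit1: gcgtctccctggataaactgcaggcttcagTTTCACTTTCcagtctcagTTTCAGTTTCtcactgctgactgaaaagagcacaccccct
Oas1a: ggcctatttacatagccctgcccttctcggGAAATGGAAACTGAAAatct
Bst2: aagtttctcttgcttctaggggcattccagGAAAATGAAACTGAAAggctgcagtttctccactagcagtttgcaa
Isg15: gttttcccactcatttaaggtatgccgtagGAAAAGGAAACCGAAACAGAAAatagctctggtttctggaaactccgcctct
Parp11: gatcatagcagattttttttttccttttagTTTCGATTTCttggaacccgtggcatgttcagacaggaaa
Trim30a: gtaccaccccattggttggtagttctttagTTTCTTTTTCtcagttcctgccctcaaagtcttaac

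In NF with TGFb1, the antiviral genes were higher after siHsp90aa1 and lower after siHsp90ab1 than after control siRNA. With siHsp90aa1, 29 of the 47 were called higher and 1 lower (Trim25), where 14.8% of all tested genes were called higher and 13.5% lower. With siHsp90ab1, 35 were called lower and none higher, where 1.62% of all tested genes were called lower and 1.06% higher. DESeq2 also called none higher, and 45 had an unadjusted p under 0.05 in either direction. Shares of all tested genes at an unadjusted p were not taken, so such counts, here and below, have no background. A call means a Benjamini-Hochberg adjusted p under 0.05 in edgeR's quasi-likelihood test over all 15230 genes. The median log2 fold change over the 47 genes was 0.71 with siHsp90aa1 (a ratio of 1.63) and -0.97 with siHsp90ab1 (a ratio of 0.510), where the medians over all tested genes were 0.01 and -0.01. These comparisons share the siCtr libraries, so the knockdowns were also set directly against each other. Directly, 44 genes were higher in siHsp90aa1 than in siHsp90ab1 NF and 1 was lower (Ifi27), where 17.7% and 16.4% of all tested genes were called in those directions. The median log2 fold change there was 1.68, a ratio of 3.19.

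Signs were opposite for 45 genes: 44 were above control with siHsp90aa1 and below it with siHsp90ab1, and Ifi27 went the other way in both. Trim21 and Trim25 were below control with both. The 3 siHsp90aa1 libraries lay above all 3 siCtr libraries for 37 genes and below them for 1, where 24.2% and 22.5% of tested genes separated that way. With siHsp90ab1, 46 genes had all 3 libraries below all 3 siCtr libraries and 1 had them above, where the shares were 11.1% and 10.5%. Between the knockdowns 45 genes separated as higher in siHsp90aa1 and 1 as lower, where the shares were 27.1% and 25.3%. Within the 3 batches the median log2 difference was 0.738, 0.667 and 0.725 with siHsp90aa1, and -1.23, -1.0 and -0.677 with siHsp90ab1. The calls were sensitive to single libraries. Without the third siCtr library with TGFb1, 19 genes were called higher with siHsp90aa1, and without the first siHsp90ab1 library or the first siCtr library with TGFb1, 17 were called lower with siHsp90ab1. The same number without the second of either was 18. Calls over all tested genes, both directions together, fell as well. For siHsp90aa1 they were 4309 with every library and 3610 without the third siCtr library. For siHsp90ab1 they were 409, and 157 and 162 without the first libraries, 180 and 184 without the second. With any library of its groups left out, the median log2 fold change stayed between 0.59 and 0.80 for siHsp90aa1. For siHsp90ab1 it stayed between -1.09 and -0.87. The direct comparison kept 44 genes higher without any library of its groups in turn.

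**Figure D1:**
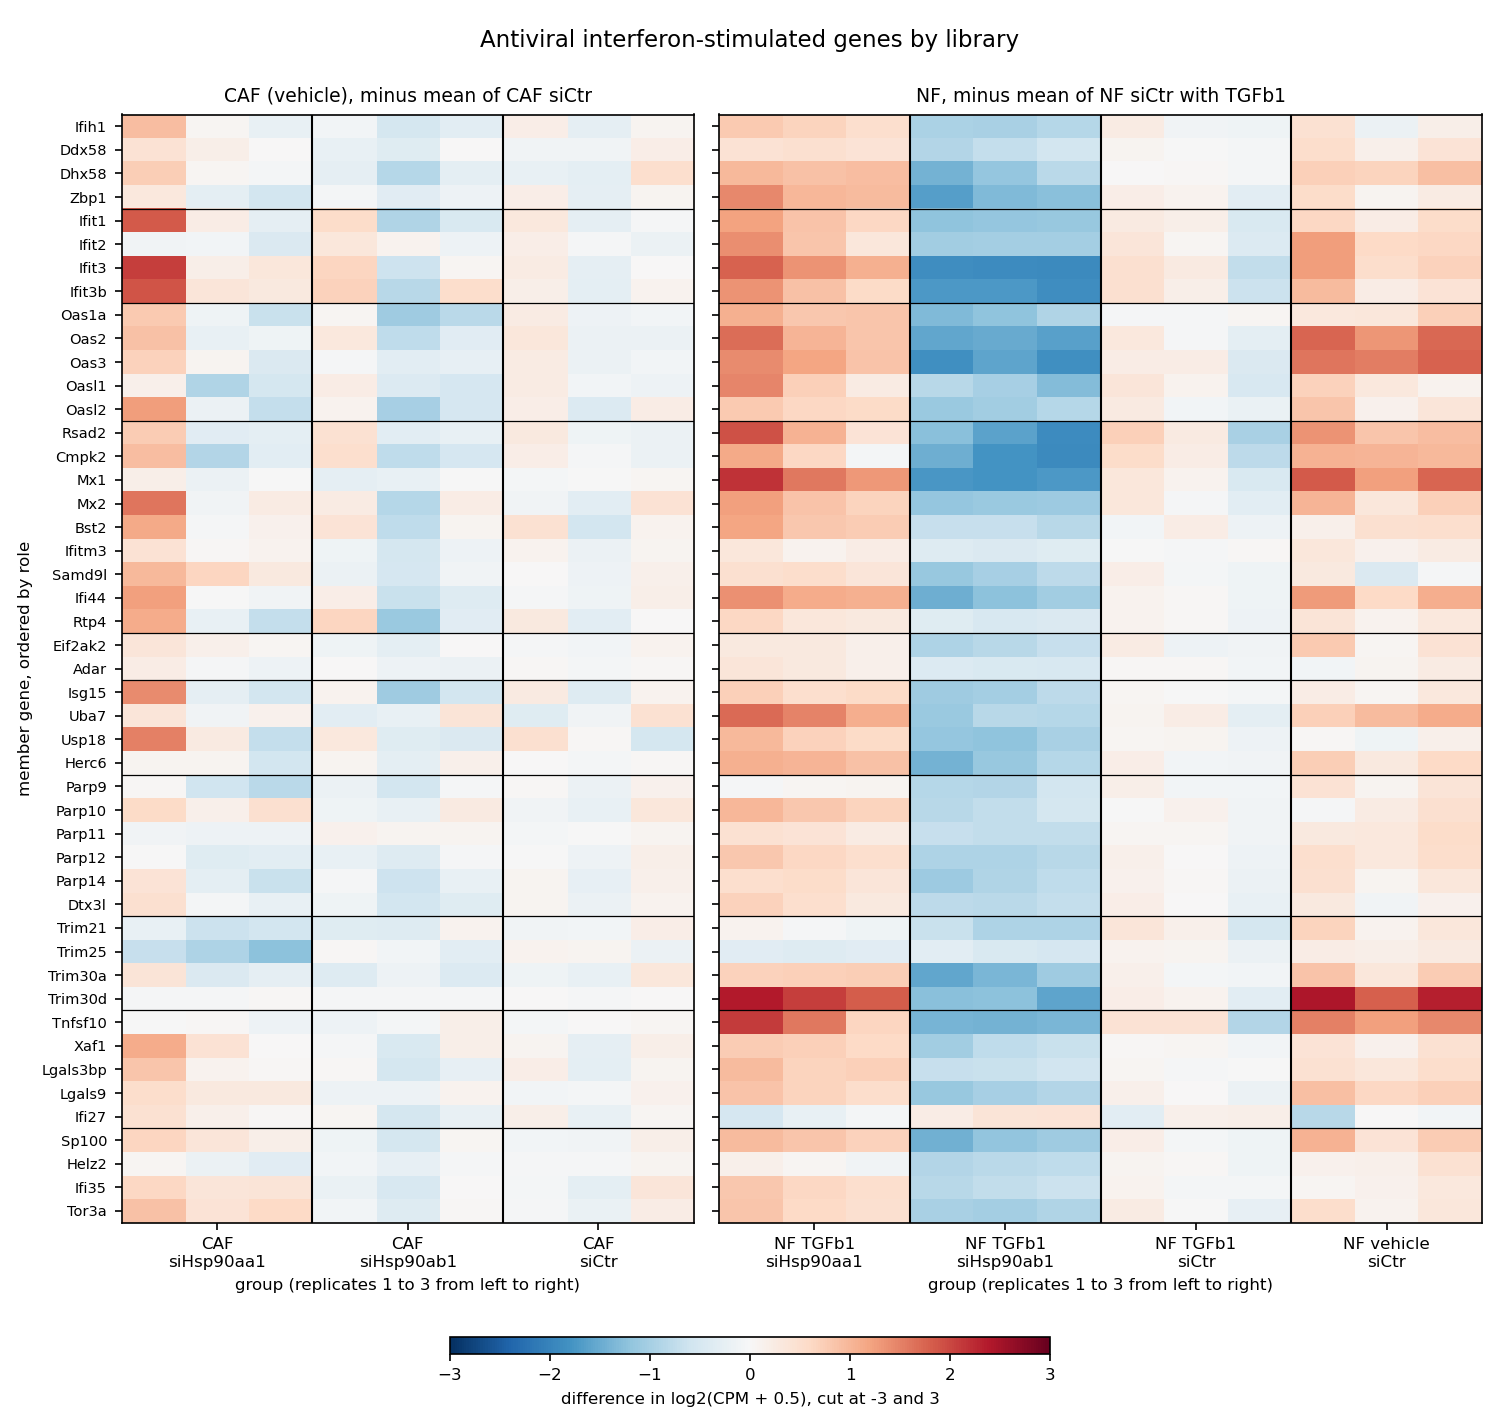
Each cell is 1 antiviral gene in 1 library, as log2(CPM + 0.5) minus the mean of that line's control (siCtr on vehicle for CAF, siCtr with TGFb1 for NF), with CAF libraries on the left, NF libraries on the right and the scale ending at -3 and 3. The siHsp90aa1 NF columns are above control for most genes and the siHsp90ab1 NF columns below, while in CAF the first siHsp90aa1 library is the highest column.

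**Figure D2:**
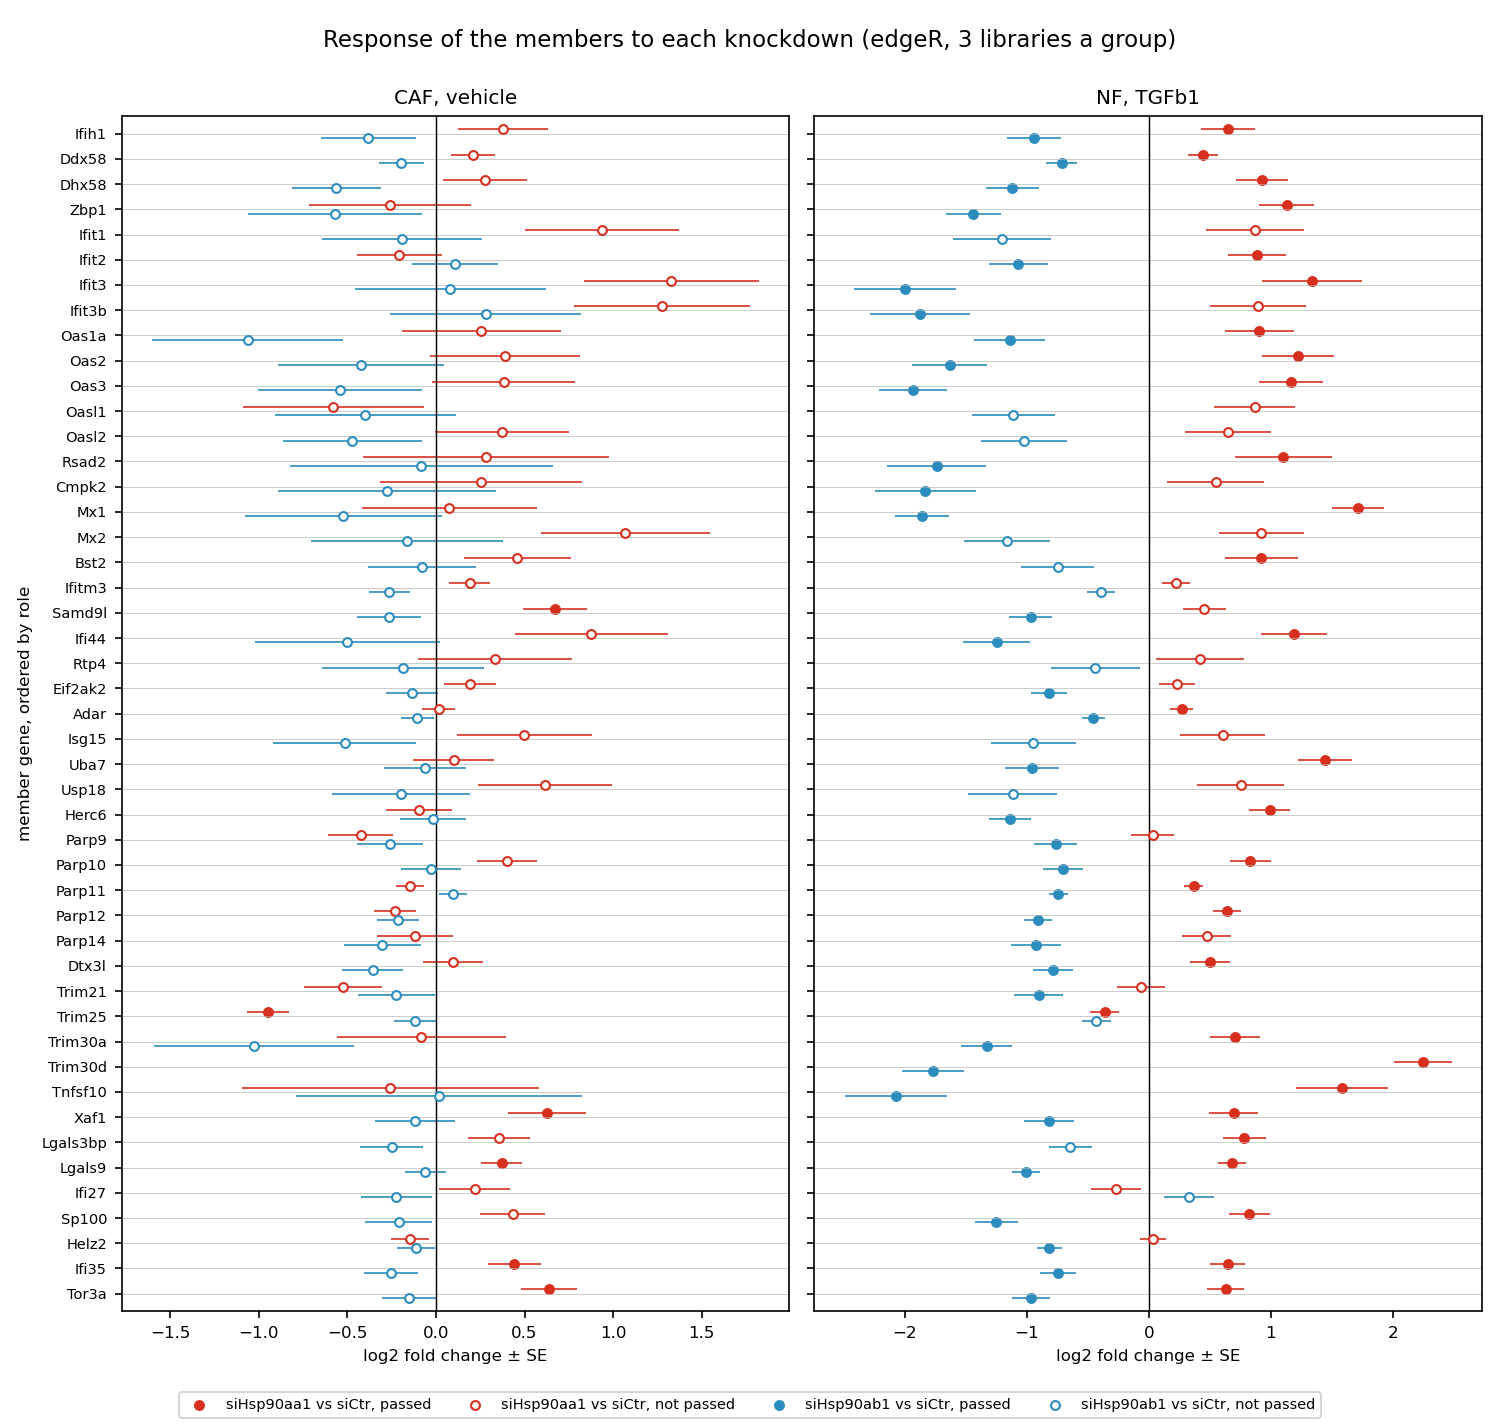
Points are log2 fold changes against the control siRNA of the same line and bars are 1 standard error, for siHsp90aa1 and siHsp90ab1, with CAF in the left panel (46 genes, without Trim30d) and NF with TGFb1 in the right panel (47 genes); filled points passed the adjusted p threshold. In NF 29 genes passed as higher with siHsp90aa1 and 35 as lower with siHsp90ab1, and in CAF no siHsp90ab1 point passed.

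All 4 sensors of viral nucleic acid passed in both knockdowns of NF, higher with siHsp90aa1 and lower with siHsp90ab1. Ddx58 encodes RIG-I, which binds viral RNA in the cytosol. It stood at 365, 377 and 359 CPM in siHsp90aa1 NF, 145, 164 and 184 CPM in siHsp90ab1 NF, and 283, 266 and 259 CPM in siCtr NF with TGFb1. The 3 groups did not overlap. Its log2 fold change was 0.45 (SE 0.13, edgeR adjusted p = 0.0132) with siHsp90aa1 and -0.71 (SE 0.13, adjusted p = 0.00377) with siHsp90ab1. Zbp1, which binds Z-form nucleic acid and can start necroptosis, had wider gaps. It stood at 126, 92.3 and 89 CPM in siHsp90aa1 NF, 14.4, 18.3 and 19.1 CPM in siHsp90ab1 NF, and 53.3, 49.7 and 37.1 CPM in siCtr NF with TGFb1. The changes were 1.13 (SE 0.22, edgeR adjusted p = 0.00114) and -1.44 (SE 0.23, adjusted p = 0.00153). Ifih1, which encodes the long double-stranded RNA sensor MDA5, and Dhx58, which encodes LGP2, had 0.65 and 0.93 with siHsp90aa1 and -0.94 and -1.12 with siHsp90ab1. The Ifih1 calls were lost in 4 and 5 of 11 alternatives, with adjusted p up to 0.114 and 0.154. Reads of Dhx58 may be shared with its overlapping antisense gene, since it is not stated whether the counting used strand.

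Of the 4 IFIT genes, whose products bind viral RNA, 2 passed as higher with siHsp90aa1, 3 as lower with siHsp90ab1, and 4 in the direct comparison. Ifit2 stood at 175, 118 and 83.7 CPM in siHsp90aa1 NF, 32.2, 32.2 and 32.7 CPM in siHsp90ab1 NF, and 85.7, 68.8 and 49.6 CPM in siCtr NF with TGFb1. One siHsp90aa1 library lay within the siCtr range. The changes were 0.89 (SE 0.24, edgeR adjusted p = 0.00991) and -1.07 (SE 0.24, adjusted p = 0.0204), and these calls were lost in 2 and 5 of 11 alternatives, with adjusted p up to 0.0875 and 0.134. Ifit1, the most abundant of the 4, had 568, 445 and 381 CPM in siHsp90aa1 NF, 107, 111 and 112 CPM in siHsp90ab1 NF, and 301, 279 and 180 CPM in siCtr NF with TGFb1. Its libraries were separate in all 3 groups, yet the log2 fold changes of 0.87 (SE 0.40) and -1.20 (SE 0.41) had edgeR adjusted p = 0.113 and 0.149. With batch as a block they were 0.0314 and 0.0327. Directly, Ifit1 was 2.08 log2 units higher in siHsp90aa1 than in siHsp90ab1 NF (SE 0.42, edgeR adjusted p = 0.000875). Ifit3 and Ifit3b are near-identical copies between which reads may be split, and they differed directly by 3.34 and 2.77.

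The OAS enzymes make oligoadenylates that switch on RNase L, which cuts RNA. Of the 5 family members, 3 passed as higher with siHsp90aa1 (Oas1a, Oas2 and Oas3), the same 3 as lower with siHsp90ab1, and all 5 in the direct comparison. Oas3 stood at 33.5, 28 and 22.5 CPM in siHsp90aa1 NF, 3.01, 3.75 and 3.05 CPM in siHsp90ab1 NF, and 14.2, 14.3 and 8.79 CPM in siCtr NF with TGFb1. No library of a group overlapped another group. The changes were 1.17 (SE 0.26, edgeR adjusted p = 0.00303) and -1.93 (SE 0.28, adjusted p = 0.000709), and the direct difference was 3.10 (SE 0.29, adjusted p = 4.5e-07). Oasl2 encodes an OAS-like protein and was the most abundant of the family. It had 629, 561 and 546 CPM in siHsp90aa1 NF, 167, 175 and 201 CPM in siHsp90ab1 NF, and 440, 347 and 317 CPM in siCtr NF with TGFb1. Against control its changes of 0.65 (SE 0.35, edgeR adjusted p = 0.179) and -1.02 (SE 0.35, adjusted p = 0.168) did not pass, the second with adjusted p = 0.0425 under the batch block, and the direct difference of 1.68 (SE 0.36, adjusted p = 0.00159) did. The 2 Oas1a calls were lost in 5 and 7 of 11 alternatives, DESeq2 among them, with adjusted p up to 0.146 and 0.220.

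Among 9 effectors that block entry, replication or release of virus, 4 passed as higher with siHsp90aa1, 5 as lower with siHsp90ab1, and 8 directly. Mx1 encodes a dynamin-like GTPase that restricts influenza virus in mice. It stood at 120, 79.5 and 64.9 CPM in siHsp90aa1 NF, 7.43, 7.19 and 7.51 CPM in siHsp90ab1 NF, and 33.1, 28.2 and 18.9 CPM in siCtr NF with TGFb1. The groups were well apart. Mx1 changed by 1.72 (SE 0.21, edgeR adjusted p = 2.44e-05) with siHsp90aa1 and by -1.86 (SE 0.22, adjusted p = 0.000171) with siHsp90ab1, and the direct difference was 3.58 (SE 0.23, adjusted p = 2.87e-08). Ifitm3, whose product stops viral membranes from fusing, was the most abundant of all 47 genes and moved least within the set of effectors. It had 1110, 942 and 1029 CPM in siHsp90aa1 NF, 677, 647 and 684 CPM in siHsp90ab1 NF, and 877, 864 and 899 CPM in siCtr NF with TGFb1. The changes of 0.22 (SE 0.11, edgeR adjusted p = 0.156) and -0.39 (SE 0.11, adjusted p = 0.0789) did not pass, with 0.0347 and 0.00498 under the batch block. Samd9l, an interferon-induced growth and poxvirus restriction factor, passed as lower with siHsp90ab1 (-0.97, SE 0.18, edgeR adjusted p = 0.00462) and had 0.46 with siHsp90aa1 (adjusted p = 0.0595, with 0.0292 under the block). Rsad2, which encodes viperin, passed in both (1.10 and -1.74), but its call with siHsp90aa1 was lost in 6 of 11 alternatives, with adjusted p up to 0.302.

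Both enzymes that act on double-stranded RNA passed as lower with siHsp90ab1, and Adar passed as higher with siHsp90aa1. Eif2ak2 encodes PKR, which shuts down translation when it binds double-stranded RNA. It stood at 386, 390 and 351 CPM in siHsp90aa1 NF, 168, 178 and 198 CPM in siHsp90ab1 NF, and 378, 285 and 297 CPM in siCtr NF with TGFb1. Its siHsp90aa1 libraries overlapped control, with a change of 0.23 (SE 0.15, edgeR adjusted p = 0.251), and its siHsp90ab1 libraries did not, with -0.82 (SE 0.15, adjusted p = 0.00408). Adar, which edits adenosine to inosine in RNA, had 391, 370 and 339 CPM in siHsp90aa1 NF, 227, 222 and 218 CPM in siHsp90ab1 NF, and 313, 311 and 288 CPM in siCtr NF with TGFb1. The changes were small, at 0.27 (SE 0.09, edgeR adjusted p = 0.0378) and -0.45 (SE 0.09, adjusted p = 0.0119), and were lost in 6 and 5 of 11 alternatives, with adjusted p up to 0.148 and 0.0651. An exon of each gene overlaps another annotated gene, Chrnb2 for Adar and Gm26637 for Eif2ak2.

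The ISG15 system attaches a ubiquitin-like protein to other proteins, and all 4 of its genes were higher in siHsp90aa1 than in siHsp90ab1 NF. Herc6, the ISG15 ligase of mouse cells, stood at 136, 132 and 118 CPM in siHsp90aa1 NF, 23.7, 29.1 and 35.3 CPM in siHsp90ab1 NF, and 74.1, 60.5 and 59.8 CPM in siCtr NF with TGFb1. The 3 groups were separate. Its changes were 0.99 (SE 0.17, edgeR adjusted p = 0.000353) and -1.14 (SE 0.17, adjusted p = 0.000946). Isg15 itself, whose promoter above holds 3 overlapping copies of the core, had 363, 314 and 328 CPM in siHsp90aa1 NF, 106, 109 and 128 CPM in siHsp90ab1 NF, and 230, 217 and 212 CPM in siCtr NF with TGFb1. Its libraries were also separate, but neither 0.61 (SE 0.35, edgeR adjusted p = 0.209) nor -0.95 (SE 0.35, adjusted p = 0.208) passed, while the direct difference of 1.55 (SE 0.36, adjusted p = 0.00253) did. Uba7, the enzyme that activates ISG15, passed in both (1.44 and -0.96), and Usp18, which removes it, had 0.75 and -1.12 (edgeR adjusted p = 0.128 and 0.13, the second 0.0379 under the batch block). The lower call of Uba7 was lost in 5 of 11 alternatives, with adjusted p up to 0.147, and an exon of Uba7 overlaps Gm20661.

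The PARP genes and Dtx3l, whose product pairs with PARP9, all passed as lower with siHsp90ab1 (6 of 6), and 4 passed as higher with siHsp90aa1. Parp11, a mono-ADP-ribosyltransferase, stood at 62.2, 60.4 and 53.7 CPM in siHsp90aa1 NF, 27.8, 26.9 and 27 CPM in siHsp90ab1 NF, and 47.6, 47.1 and 41.9 CPM in siCtr NF with TGFb1. Its libraries varied little within a group. The changes were 0.37 (SE 0.08, edgeR adjusted p = 0.00188) and -0.74 (SE 0.08, adjusted p = 7.77e-05), the second the smallest adjusted p of the 47 genes in that comparison. Parp12, another mono-ADP-ribosyltransferase and the most abundant of this family, had 437, 383 and 353 CPM in siHsp90aa1 NF, 130, 131 and 139 CPM in siHsp90ab1 NF, and 276, 252 and 223 CPM in siCtr NF with TGFb1. Again no group overlapped, with 0.64 (SE 0.12, edgeR adjusted p = 0.000545) and -0.91 (SE 0.12, adjusted p = 0.00028). The siHsp90ab1 calls of Parp9, Parp10, Parp14 and Dtx3l were each lost in 4 of 11 alternatives, with adjusted p between 0.0878 and 0.162 at most. Parp9 and Dtx3l overlap each other, and Parp10 overlaps Plec, so these values are less certain.

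The TRIM ubiquitin ligases split. Trim30d had the largest fold changes of the 47 genes with siHsp90aa1, and stood at 18.8, 14.9 and 12.4 CPM in siHsp90aa1 NF, 1.05, 1.07 and 0.74 CPM in siHsp90ab1 NF, and 3.75, 3.47 and 2.46 CPM in siCtr NF with TGFb1. The changes were 2.25 (SE 0.24, edgeR adjusted p = 1.12e-05) and -1.77 (SE 0.26, adjusted p = 0.00107). Trim30a, a close paralog with which it may share reads and which restrains Toll-like receptor signalling in mice, passed in the same directions (0.71 and -1.33). Trim25, the ligase that activates RIG-I, went the other way with siHsp90aa1. It had 256, 249 and 255 CPM in siHsp90aa1 NF, 260, 235 and 229 CPM in siHsp90ab1 NF, and 347, 343 and 287 CPM in siCtr NF with TGFb1. Both knockdown groups lay below all control libraries and overlapped each other, with -0.36 (SE 0.12, edgeR adjusted p = 0.0288) and -0.43 (SE 0.12, adjusted p = 0.0586, with 0.00743 under the batch block) and a direct difference of 0.07 (SE 0.12, adjusted p = 0.688). The siHsp90aa1 call of Trim25 was lost in 5 of 11 alternatives, with adjusted p up to 0.108. Trim21, an antibody receptor of the cytosol, passed as lower with siHsp90ab1 (-0.90) and had -0.06 with siHsp90aa1.

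Of the 5 lectins and death-linked genes, 4 passed as higher with siHsp90aa1 and 3 as lower with siHsp90ab1. Lgals9, which encodes galectin-9, stood at 330, 289 and 261 CPM in siHsp90aa1 NF, 82.4, 91.7 and 99.4 CPM in siHsp90ab1 NF, and 203, 184 and 161 CPM in siCtr NF with TGFb1. The groups did not overlap, with 0.68 (SE 0.11, edgeR adjusted p = 0.000321) and -1.01 (SE 0.12, adjusted p = 0.000134). Lgals3bp, a secreted glycoprotein that binds galectins, had 985, 811 and 838 CPM in siHsp90aa1 NF, 314, 320 and 345 CPM in siHsp90ab1 NF, and 528, 496 and 506 CPM in siCtr NF with TGFb1. It passed with siHsp90aa1 (0.78, SE 0.18, edgeR adjusted p = 0.0032), while -0.65 with siHsp90ab1 (SE 0.18) had adjusted p = 0.0592, or 0.00865 under the block. Xaf1, an antagonist of the apoptosis inhibitor XIAP, passed in both (0.70 and -0.82), with calls lost in 2 and 6 of 11 alternatives at adjusted p up to 0.0536 and 0.200. Tnfsf10, the death ligand TRAIL, also passed in both (1.58 and -2.08), from a low level of 3.71, 3.69 and 1.2 CPM in siCtr NF with TGFb1. Ifi27 was the exception: it had 28.2, 34.2 and 38.5 CPM in siHsp90aa1 NF, 47, 52.6 and 53.3 CPM in siHsp90ab1 NF, and 32, 44.5 and 45.1 CPM in siCtr NF with TGFb1. Its siHsp90aa1 libraries overlapped control, its siHsp90ab1 libraries lay above it, and the direct difference was -0.60 (SE 0.20, edgeR adjusted p = 0.0288). That call was lost in 4 of 11 alternatives, with adjusted p up to 0.127, on leaving out the first or second siHsp90aa1 or the second or the third siHsp90ab1 NF library.

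The nuclear and remaining genes were all lower with siHsp90ab1 (4 of 4), and 3 were higher with siHsp90aa1. Sp100, a component of PML nuclear bodies, stood at 87.2, 81.1 and 73.1 CPM in siHsp90aa1 NF, 16.3, 19.8 and 21.3 CPM in siHsp90ab1 NF, and 51.6, 43.2 and 41.4 CPM in siCtr NF with TGFb1. Tor3a, a torsin-family ATPase, had 487, 416 and 379 CPM in siHsp90aa1 NF, 140, 135 and 147 CPM in siHsp90ab1 NF, and 324, 272 and 232 CPM in siCtr NF with TGFb1. Neither gene had overlapping groups. The changes were 0.83 (SE 0.17, edgeR adjusted p = 0.00163) and -1.25 (SE 0.17, adjusted p = 0.000552) for Sp100, and 0.63 (SE 0.15, adjusted p = 0.00542) and -0.97 (SE 0.16, adjusted p = 0.0017) for Tor3a. Ifi35 passed in both (0.65 and -0.75), its lower call being lost in 2 of 11 alternatives (adjusted p up to 0.0571), and Helz2, a helicase, passed with siHsp90ab1 (-0.81) and had 0.03 with siHsp90aa1.

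The control NF libraries with TGFb1 were themselves lower for part of the programme than those on vehicle. With TGFb1, 17 of the 47 genes were called lower and none higher, where 14.4% of all tested genes were called lower and 14.6% higher, and the median log2 fold change was -0.44. At an unadjusted p under 0.05 the count was 21, in both directions together, and DESeq2 called none higher. Trim30d and Oas3 differed most among the named genes. Trim30d stood at 3.75, 3.47 and 2.46 CPM with TGFb1 and 19.2, 12.2 and 18 CPM on vehicle (-2.35, SE 0.24, edgeR adjusted p = 1.86e-06). Oas3 had 14.2, 14.3 and 8.79 CPM with TGFb1 and 38.3, 36.3 and 42.3 CPM on vehicle (-1.64, SE 0.26, adjusted p = 0.000132). Mx1 had 33.1, 28.2 and 18.9 CPM with TGFb1 and 95.3, 62.2 and 88.8 CPM on vehicle (-1.62, SE 0.21, adjusted p = 1.66e-05). In each the 2 groups did not overlap, which held for 27 of the 47 genes, all lower, where 19.9% of tested genes separated in that direction. Within the batches the median difference was -0.350, -0.212 and -0.645.

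Lower calls with TGFb1 also included Lgals9 (-0.75, edgeR adjusted p = 8.18e-05), Sp100 (-0.76, adjusted p = 0.00238), Parp11 (-0.39, adjusted p = 0.00083) and Parp12 (-0.44, adjusted p = 0.0074). Ddx58 (-0.37), Eif2ak2 (-0.45), Herc6 (-0.55) and Ifit2 (-0.83) passed but lost the call in 5, 4, 3 and 2 of 11 alternatives. Isg15 (-0.21, edgeR adjusted p = 0.708), Zbp1 (-0.29, adjusted p = 0.354), Ifit1 (-0.44, adjusted p = 0.452), Oasl2 (-0.45, adjusted p = 0.371) and Samd9l (0.03, adjusted p = 0.917) did not pass. The summed TPM of the 47 genes, the level of the programme per transcript length, was 11928 to 14051 in siHsp90aa1 NF, 5572 to 5943 in siHsp90ab1 NF and 8685 to 9025 in siCtr NF with TGFb1, beside 10166 to 12149 in siCtr NF on vehicle. Both knockdowns of NF were measured with TGFb1 only, so their effect on the vehicle level was not measured.

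The interferon pathway was read from a list of 46 ligand, receptor, kinase, transcription factor, inhibitor and adaptor genes, of which 34 were tested. The programme feeds back on itself, and the order of change between these genes and the antiviral genes was not tested. In NF 15 of the 34 were higher with siHsp90aa1, 4 were lower with siHsp90ab1 (Stat2, Irf7 and Tlr3 among them), and 22 were higher in siHsp90aa1 than in siHsp90ab1, with no call the other way, where 14.8%, 1.62% and 17.7% of all tested genes were called in those directions. The counts of its sub-lists below stand against the same shares. Ifnb1, which encodes interferon beta, was the single ligand of 10 that passed the filter. Its whole libraries held 53, 53 and 14 counts in siHsp90aa1 NF, 1, 1 and 2 counts in siHsp90ab1 NF, and 4, 13 and 5 counts in siCtr NF with TGFb1. Those are few counts, but the siHsp90aa1 libraries lay above all others with TGFb1 and the siHsp90ab1 libraries below them. Ifnb1 was 2.38 log2 units above control with siHsp90aa1 (SE 0.45, edgeR adjusted p = 0.00225). With siHsp90ab1, at 1 to 2 counts a library, the fitted -2.39 (SE 0.66) had adjusted p = 0.0884 and depends on the prior count. On vehicle the siCtr NF libraries held 43, 36 and 39 counts, so that Ifnb1 was lower with TGFb1 (-2.26, SE 0.45, edgeR adjusted p = 0.00249).

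Of 9 STAT and IRF genes tested, 6 were higher with siHsp90aa1 and 3 lower with siHsp90ab1. Stat2, a transcription factor activated by the interferon receptor, had 359, 299 and 269 CPM in siHsp90aa1 NF, 81.5, 78.8 and 93.5 CPM in siHsp90ab1 NF, and 210, 177 and 147 CPM in siCtr NF with TGFb1. The 3 groups were separate. Stat2 changed by 0.79 (SE 0.18, adjusted p = 0.00396) and -1.07 (SE 0.19, adjusted p = 0.00321). Of 8 receptor and kinase genes tested, 2 were higher with siHsp90aa1. The genes higher with siHsp90aa1 were the kinases Jak1 (0.45, SE 0.11, edgeR adjusted p = 0.0049) and Tyk2 (0.48, SE 0.08, adjusted p = 0.000345). None of the 8 passed with siHsp90ab1 in edgeR, with 2 at an unadjusted p under 0.05.

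Of 5 feedback inhibitors, Socs1, which blocks the JAK kinases, was higher with siHsp90aa1. Socs1 had 52, 29.8 and 26.2 CPM in siHsp90aa1 NF, 12.9, 12.2 and 11.2 CPM in siHsp90ab1 NF, and 15, 18.3 and 12.4 CPM in siCtr NF with TGFb1 (1.24, SE 0.24, edgeR adjusted p = 0.00107, with siHsp90aa1). Pias1, a SUMO ligase that restrains the pathway, had 0.17 with siHsp90aa1 (adjusted p = 0.133). Among 11 tested sensors, adaptors and kinases, 5 were higher with siHsp90aa1 and 1, Tlr3, was lower with siHsp90ab1. Tlr3, an endosomal receptor for double-stranded RNA, had 89.7, 75.4 and 56.2 CPM in siHsp90aa1 NF, 15.8, 14.9 and 17.5 CPM in siHsp90ab1 NF, and 54.4, 38.4 and 31.4 CPM in siCtr NF with TGFb1. It differed from control by 0.83 (SE 0.20, edgeR adjusted p = 0.00479) and -1.37 (SE 0.20, adjusted p = 0.000946), and the groups did not overlap. Myd88, the adaptor of most other Toll-like receptors, was higher with siHsp90aa1 (0.46, SE 0.11, edgeR adjusted p = 0.00584) and had -0.38 with siHsp90ab1 (adjusted p = 0.0926, with 0.032 under the batch block).

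**Figure D3:**
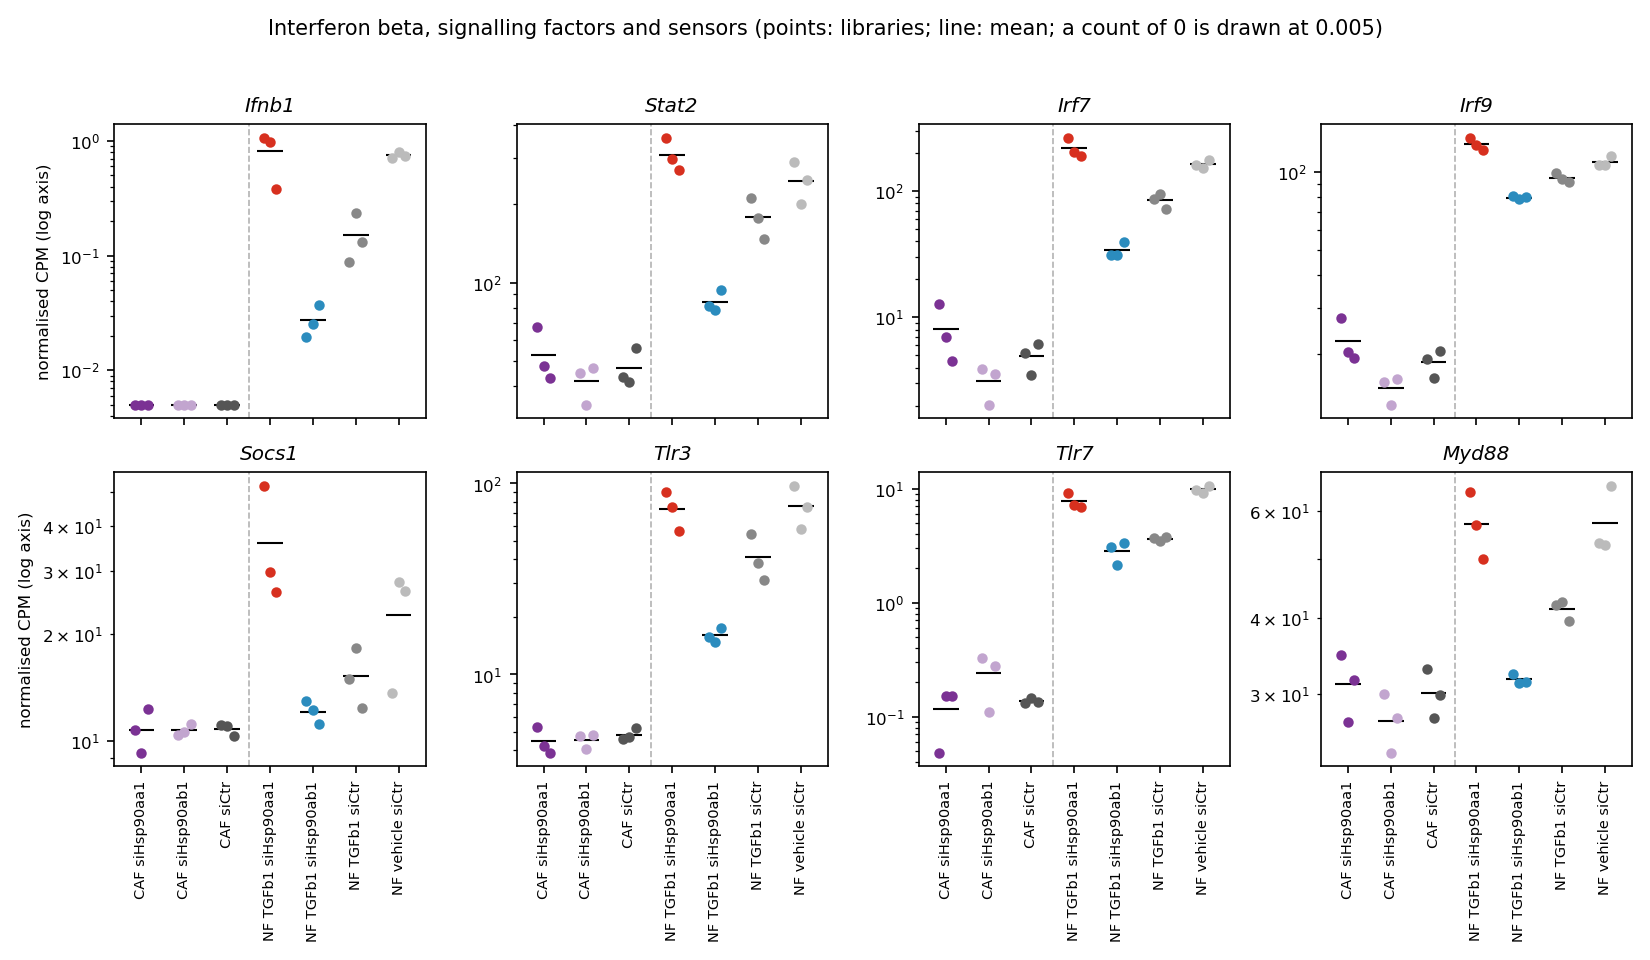
CPM on a log axis of 8 interferon pathway genes (Ifnb1, Stat2, Irf7, Irf9, Socs1, Tlr3, Tlr7 and Myd88), with 1 point a library and a bar at each group mean, CAF groups left and NF groups right; a value of 0 is drawn at 0.005. Ifnb1 is at 0 in every CAF library, and Stat2, Irf7 and Tlr3 separate the 3 NF groups with TGFb1.

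Between the lines on vehicle with control siRNA, 46 of the 47 genes were lower in CAF and 1, Ifi27, was higher, where 30.0% of all tested genes were called lower and 31.6% higher. The median log2 fold change was -4.01, or -3.94 without Trim30d, which had too few CAF counts for a fitted fold. All 46 separated without overlap in the lower direction and Ifi27 in the higher one, where 29.8% and 31.6% of tested genes did. These calls held in all 11 alternatives. Ifi27, a small interferon-induced membrane protein, stood at 92, 70.4 and 85.3 CPM in CAF against 22.2, 40.7 and 37.7 CPM in NF (1.30, SE 0.20, edgeR adjusted p = 2.4e-05). Because so many genes differed between the lines, a call on its own says little about any 1 gene, and the sizes of the differences follow.

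The widest differences were in genes near 0 in CAF. Mx1 stood at 0.235, 0.259 and 0.287 CPM in CAF and 95.3, 62.2 and 88.8 CPM in NF on vehicle (-8.30, SE 0.33, edgeR adjusted p = 3.93e-13). Zbp1 had 0.514, 0.231 and 0.439 CPM in CAF and 67.6, 48.9 and 55.3 CPM in NF (-7.09, SE 0.32, adjusted p = 3.17e-12). Trim30d had 2 counts over the 3 CAF libraries and 2647 over the 3 NF libraries, and the NF over CAF ratio of 1304 had a 95% counting interval of 361 to 10775. Trim30d was under the floor of 3 counts in CAF, while Mx1 and Zbp1 were low there but counted in every library. The gap was smaller for genes with a basal level in both lines. Adar stood at 62.7, 58.4 and 62.3 CPM in CAF and 285, 321 and 358 CPM in NF (-2.39, SE 0.10, edgeR adjusted p = 7.06e-13). Trim25 had 85.8, 84.2 and 71 CPM in CAF and 375, 367 and 394 CPM in NF (-2.24, SE 0.12, adjusted p = 3.45e-11), and Parp11 had 11.5, 11.8 and 12.7 CPM in CAF and 55.9, 56.8 and 66.9 CPM in NF (-2.32, SE 0.08, adjusted p = 1.03e-13).

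The order of levels per transcript length differed between the lines. Ifitm3 led in both, with a mean of 731 TPM in CAF and 3551 TPM in NF on vehicle. In CAF it was followed by Ifi27 (241 TPM), Lgals3bp (104 TPM), Lgals9 (94.1 TPM) and Bst2 (85.3 TPM), and in NF by Bst2 (940 TPM), Isg15 (756 TPM), Lgals3bp (590 TPM) and Oasl2 (464 TPM). Summed TPM of the 47 genes lay between 1157 and 2269 in all CAF libraries, and up to 1736 without the first siHsp90aa1 library. Pathway genes differed too: 7 of the 34 tested were higher in CAF and 20 lower, where 31.6% and 30.0% of all tested genes were. Ifnb1 had no count in any CAF library, so that NF on vehicle was at least 38.8-fold higher than siCtr CAF, from a floor of 3 counts over the CAF group. Stat2 stood at 43.4, 41.7 and 55.9 CPM in CAF and 290, 200 and 247 CPM in NF (-2.38, SE 0.19, edgeR adjusted p = 6.53e-09), while Tyk2 was slightly higher in CAF (0.28, SE 0.08, adjusted p = 0.00592, lost in 1 of 11 alternatives at 0.0754). Thy1, Fap, Dcn and Krt19, given above, differ between the lines as well, and their part in these differences was not tested.

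**Figure D4:**
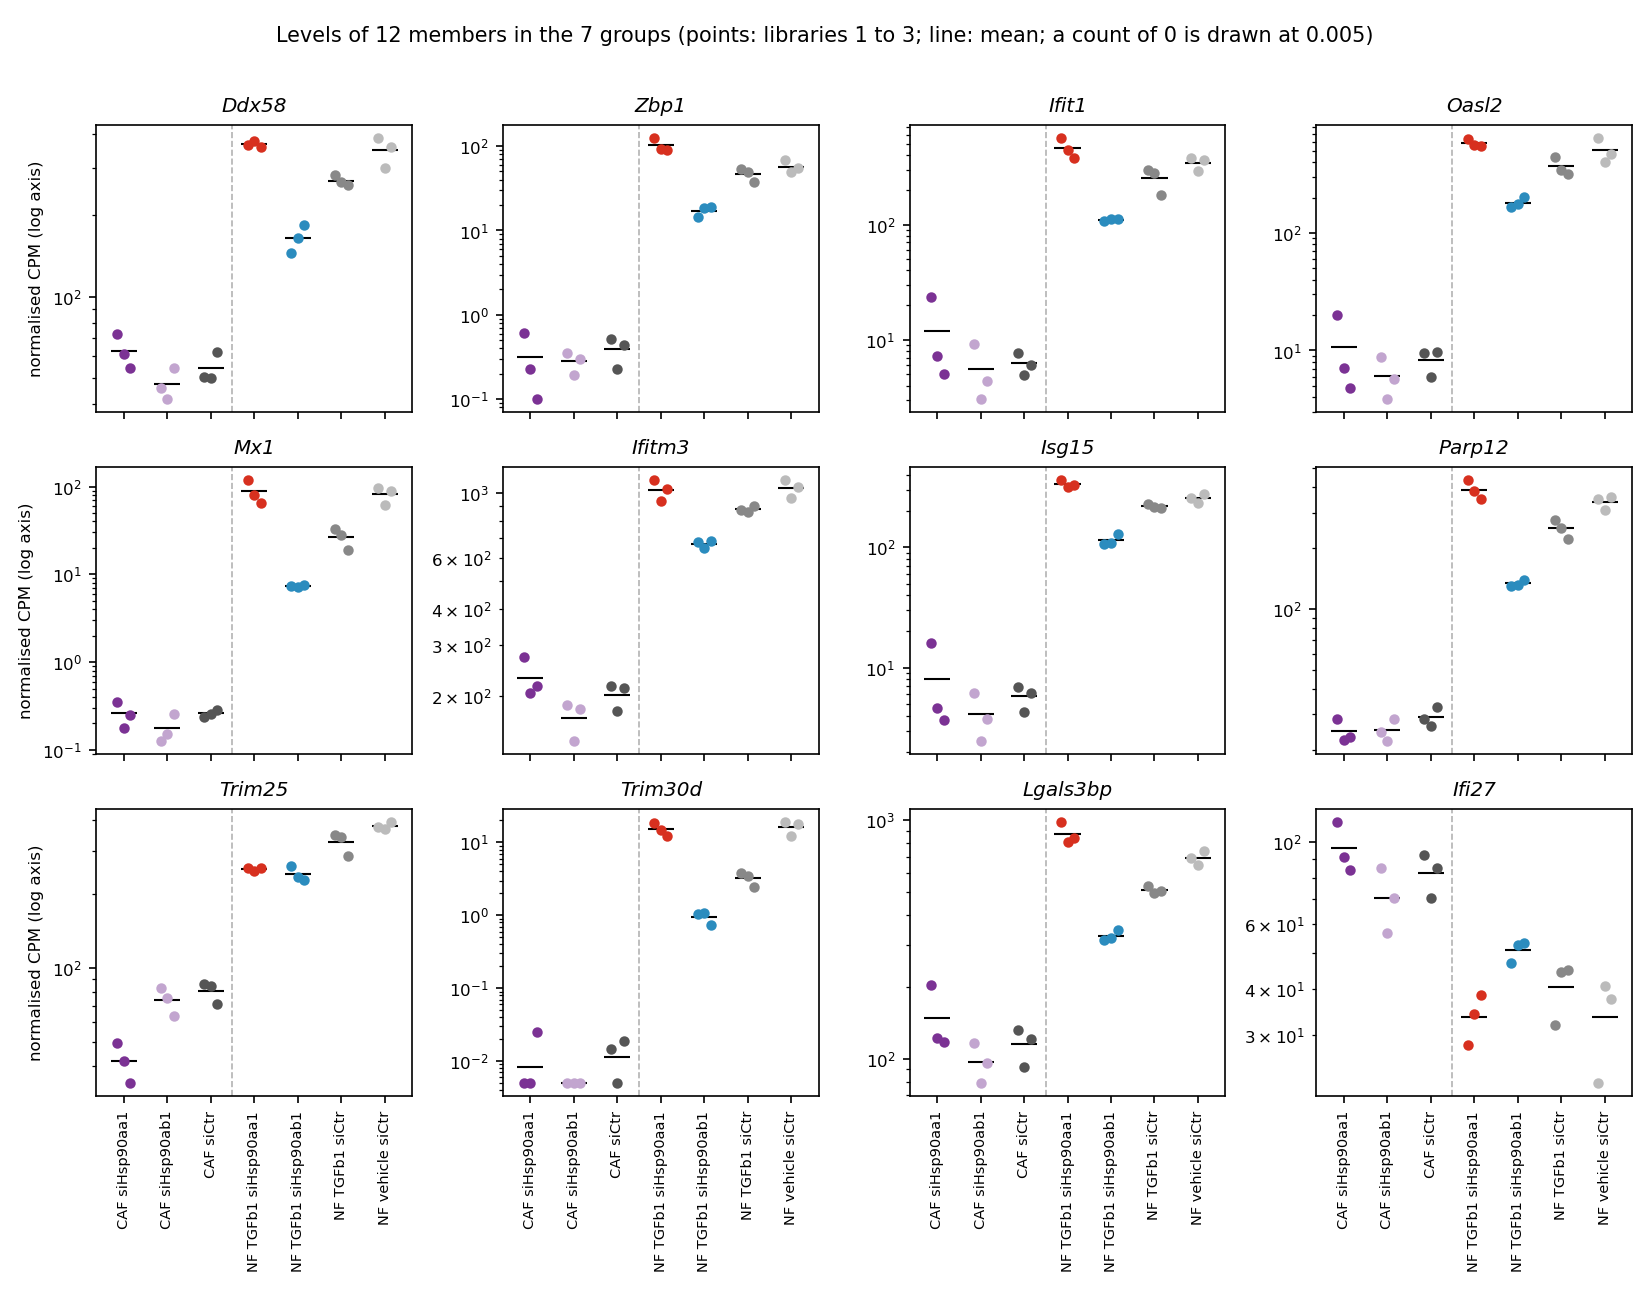
CPM on a log axis of 12 antiviral genes chosen across the roles, with 1 point a library and a bar at each group mean, CAF groups left and NF groups right; a value of 0 is drawn at 0.005. Every gene but Ifi27 is lower in CAF than in NF, and within NF the siHsp90ab1 libraries are lowest for all but Trim25 and Ifi27.

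In CAF no call was made with siHsp90ab1 and few with siHsp90aa1. With siHsp90ab1 none of the 47 genes was called by edgeR, where 0.466% of all tested genes were called higher and 0.433% lower. At such shares a count of none does not show that a response was absent. DESeq2 also called 0, and 2 had an unadjusted p under 0.05. Over the 46 genes without Trim30d the median log2 fold change was -0.21, with 5 positive and 41 negative. No gene had its 3 siHsp90ab1 libraries all above or all below the siCtr libraries, where 7.60% and 7.73% of tested genes did. Within the batches the median difference over the 47 genes was -0.0732, -0.256 and -0.195. There 31 genes were lower in all 3, a count without a share over all tested genes, so it is not read as a response. For Parp12 the values were 24.6, 22.1 and 28.3 CPM in siHsp90ab1 CAF and 28.4, 26.1 and 32.5 CPM in siCtr CAF (-0.22, SE 0.12, edgeR adjusted p = 0.66).

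With siHsp90aa1 in CAF, 5 genes were called higher (Tor3a, Samd9l, Lgals9, Ifi35 and Xaf1) and 1 lower (Trim25), where 12.5% of all tested genes were called higher and 12.9% lower. The share of these genes called higher is thus close to the background. The libraries separated as higher for 4 genes and as lower for 3, where 20.9% and 19.5% of tested genes did. The median log2 fold change over 46 genes was 0.27, with 33 positive and 13 negative. The first siHsp90aa1 CAF library had a median of 0.565 log2 units above the mean of siCtr CAF, against -0.0320 and -0.159 in the other 2. Without that library the median over 47 genes was -0.16, with 15 positive and 32 negative, and 1 gene was called higher and 3 lower. Hence the direction over the genes rests on 1 library. Within the batches the median difference was 0.531, 0.117 and -0.227. Leaving out control libraries mattered as well: 1 gene was called higher without the second siCtr CAF library and 2 without the first, and 8 without the third siHsp90aa1 library. Over all tested genes, both directions together, 3867 were called with every library and 3332 without the first siHsp90aa1 library. The total was 2460 without the second siCtr library, 2605 without the first and 2524 without the third siHsp90aa1 library.

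Tor3a stood at 71.1, 50.9 and 57.6 CPM in siHsp90aa1 CAF and 37.5, 33 and 44.9 CPM in siCtr CAF, with no overlap (0.64, SE 0.16, edgeR adjusted p = 0.00602). Samd9l had 51.1, 40.5 and 31.3 CPM in siHsp90aa1 CAF and 25.7, 22.9 and 28.6 CPM in siCtr CAF (0.67, SE 0.18, adjusted p = 0.0103, and 0.0726 without the first siHsp90aa1 library). Lgals9 had 97.9, 83.6 and 83.3 CPM in siHsp90aa1 CAF and 64.8, 65.7 and 74.3 CPM in siCtr CAF (0.37, SE 0.12, adjusted p = 0.0245). These 3 had every knockdown library above every control library. Ifi35 had 22.2, 18.7 and 19 CPM in siHsp90aa1 CAF and 13.7, 11.6 and 18.7 CPM in siCtr CAF (0.44, SE 0.15, edgeR adjusted p = 0.0375). Xaf1 had 11.4, 7 and 5.14 CPM in siHsp90aa1 CAF and 5.35, 4.15 and 5.83 CPM in siCtr CAF (0.63, SE 0.22, adjusted p = 0.045), with overlap. Trim25 had 49.3, 41.6 and 33.9 CPM in siHsp90aa1 CAF and 85.8, 84.2 and 71 CPM in siCtr CAF (-0.95, SE 0.12, adjusted p = 3.54e-05). The Trim25 groups were far apart, and its call and that of Tor3a held in all 11 alternatives. The calls of Samd9l, Lgals9, Xaf1 and Ifi35 were lost in 2, 3, 6 and 7 of them, with adjusted p up to 0.0726, 0.119, 0.422 and 0.209. Ifi35 shares an exon with Gm11626 on the other strand.

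**Figure D5:**
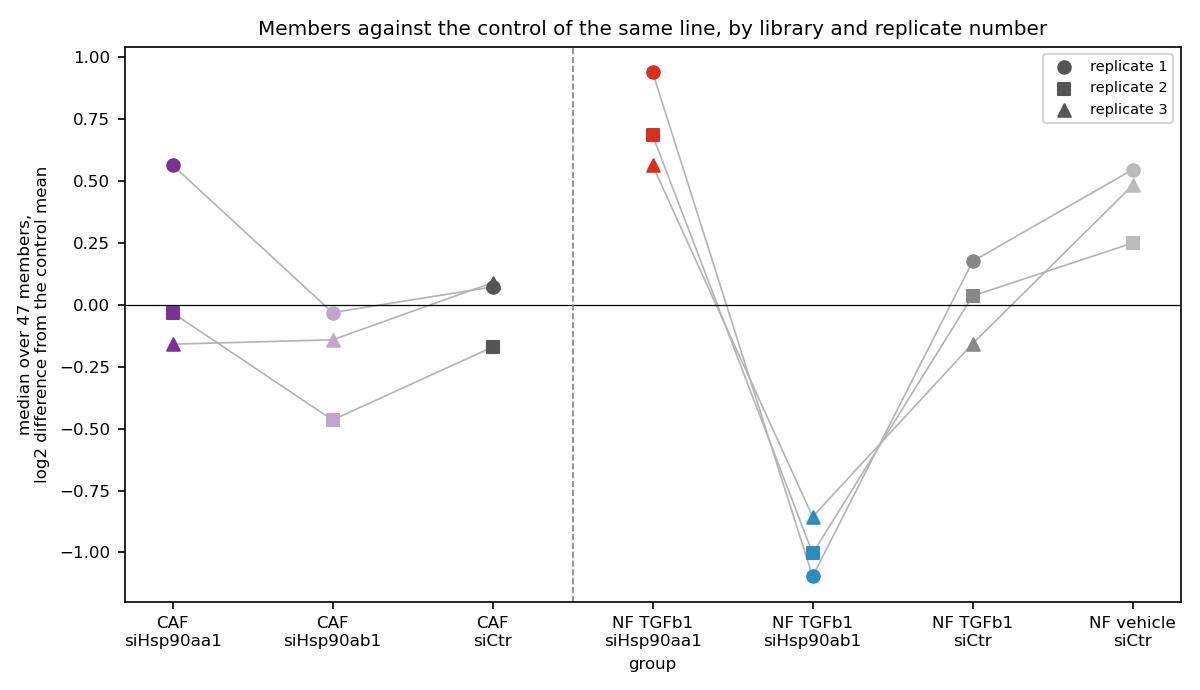
Each point is 1 library, placed at the median over the 47 genes of log2(CPM + 0.5) minus the mean of its line's control, with marker shapes for the batch numbers and lines joining the same number within a line, CAF left and NF right. The siHsp90aa1 NF libraries lie at 0.940, 0.684 and 0.564 and the siHsp90ab1 NF libraries at -1.10, -1.0 and -0.856, whereas of the siHsp90aa1 CAF libraries the first lies at 0.565 and the other 2 near 0.

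Set directly against each other in CAF, 12 genes were higher in siHsp90aa1 than in siHsp90ab1 and 2 were lower (Trim25 and Parp11), where 13.1% and 13.3% of all tested genes were called. The libraries separated for 9 and 2 genes in those directions, where 22.8% and 20.2% of tested genes did. The median over 46 genes was 0.52, with 36 positive and 10 negative. Without the first siHsp90aa1 library it was 0.09 over 47 genes, with 28 positive and 19 negative, and 3 genes were called higher. That count was also 3 without the second siHsp90ab1 library and 20 without the third siHsp90aa1 library. Over all tested genes 4006 were called in both directions with every library, and 3428, 2478 and 2506 without these 3 in turn. Samd9l (0.94, SE 0.18, edgeR adjusted p = 0.00113), Tor3a (0.79, SE 0.16, adjusted p = 0.00145), Ifi35 (0.70, SE 0.15, adjusted p = 0.0028) and Trim25 (-0.83, SE 0.12, adjusted p = 0.000123) kept their calls in all 11 alternatives. Ifitm3 (0.45, adjusted p = 0.00764) and Lgals9 (0.43, adjusted p = 0.0107) passed but each lost the call in 3 of 11, without the first siHsp90aa1 library among them. Ifit1 had 1.13 (SE 0.44, edgeR adjusted p = 0.0682, with 0.0262 under the batch block) and Isg15 1.02 (SE 0.40, adjusted p = 0.0668, with 0.0416 under the block).

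Whether a knockdown's effect differed between CAF on vehicle and NF with TGFb1 was tested as an interaction, in which line and TGFb1 cannot be told apart. The NF effects known when the genes were picked enter this test, so its counts describe the genes and support nothing on their own. For siHsp90aa1 5 genes had a lower effect in CAF (Uba7, Herc6, Parp11, Parp12 and Trim25) and none a higher one, where 3.02% and 2.44% of all tested genes were called. DESeq2 called 8 lower and none higher, and 9 genes had an unadjusted p under 0.05 in either direction. The median over the 47 genes was -0.40, and without the first siHsp90aa1 CAF library it was -0.94, with 9 genes called lower. Over all tested genes 832 were called in both directions with every library and 671 without that one. Parp12 stood at 28.5, 22.5 and 23 CPM in siHsp90aa1 CAF and 28.4, 26.1 and 32.5 CPM in siCtr CAF (-0.23, SE 0.12, edgeR adjusted p = 0.162), while it was 0.64 above control in NF. That difference of -0.87 (SE 0.16, adjusted p = 0.00534) held in all 17 alternatives, as did Herc6 (-1.09, SE 0.25, adjusted p = 0.0164) and Parp11 (-0.51, SE 0.11, adjusted p = 0.0118). Uba7 (-1.34, SE 0.32, edgeR adjusted p = 0.0185) and Trim25 (-0.59, SE 0.17, adjusted p = 0.0492) lost the call in 3 and 11 of 17, with adjusted p up to 0.0599 and 0.130. For siHsp90ab1 Parp11 was the single gene called by edgeR, against 5 by DESeq2, with a difference of 0.84 (SE 0.11, edgeR adjusted p = 0.0101). Over all tested genes 0.00657%, this single gene, were called higher and 0% lower. At an unadjusted p under 0.05 the count was 23 of the 47, with no share over all tested genes to set it against. The Parp11 siHsp90ab1 libraries stood at 13.1, 12.6 and 12.6 CPM in CAF, against 11.5, 11.8 and 12.7 CPM in siCtr CAF, and the call was lost in 6 of 17 alternatives (adjusted p up to 0.0698). For the other genes an effect that passed in NF and missed the threshold in CAF was not shown to differ between the lines.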

How the data were processed

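The authors deposited 2 gene tables for 21 libraries of poly(A) RNA (stranded TruSeq, per the labels' protocols). The expected counts were estimated per gene by the authors, with STAR and Salmon on GRCm38 named in the submitters' processing notes, and 10.9% were not whole and were rounded here. The TPM, scaled by the authors for transcript length and library total, were used as deposited. Tool versions and strand use in the counting are not given in any source used here. Samples were grouped by title. edgeR 4.0.16 (R 4.3.3, limma 3.58.1) fitted all 7 groups with TMM scaling, a filter on low counts (filterByExpr, minimum 10, total 15) and a prior count of 0.125. Standard errors are the absolute log2 fold change over the square root of F. CPM are TMM-scaled.

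The members, lists and tests were chosen with earlier results of these data known. Named genes were, in each role, those with the highest mean TPM and the smallest direct p in NF, those called in CAF siHsp90aa1 (the 6 with the smallest p in the direct CAF comparison too), Ifi27, and the pathway genes with the smallest direct p. Other genes were named after their values were seen, and 1 pathway gene of this rule is not reported here.

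The labels' batch number pairs libraries: over 63 same-number pairs the deviations from group means correlated at a mean r of 0.156 (-0.0558 to 0.560, 41 over 0.1). The mean for other pairs was -0.0778. Because each group was centred on its own mean, that value largely follows from the first and is no separate comparison. Alternatives were DESeq2 1.42.0, its size factors (RLE) in edgeR, no filter, only the groups compared, the block, and each library left out. The procedure was tested on simulated data. Replicate libraries differed beyond counting noise (chi-square per degree of freedom 17.5 to 155). Promoters came from RefSeq and were shown for the first 6 roles with a match, by mean TPM; 12 members had no entry and are named only: Dhx58, Zbp1, Oas2, Mx1, Mx2, Rtp4, Usp18, Parp9, Parp10, Parp14, Ifi27 and Tor3a.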

Additional observations from a re-analysis of the deposited data

Results flagged for a closer look

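For 5 genes the siHsp90aa1 effect differed between CAF on vehicle and NF with TGFb1, where line and TGFb1 cannot be told apart. The genes were picked with their NF effects known, and these enter the difference, so the calls support nothing on their own. The difference itself was tested (edgeR's quasi-likelihood test, adjusted over all tested genes). The differences, CAF minus NF in log2 units, were -1.34 for Uba7 (SE 0.32, adjusted p = 0.0185), -1.09 for Herc6 (SE 0.25, adjusted p = 0.0164), -0.51 for Parp11 (SE 0.11, adjusted p = 0.0118), -0.87 for Parp12 (SE 0.16, adjusted p = 0.00534) and -0.59 for Trim25 (SE 0.17, adjusted p = 0.0492). The first 4 were higher than control in NF and not called in CAF, whereas Trim25 was lower than control in both lines and more so in CAF. The siHsp90ab1 effect differed for Parp11, by 0.84 (SE 0.11, adjusted p = 0.0101). That call and those of Uba7 and Trim25 for siHsp90aa1 were lost in some of the 17 alternatives.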

How the results depend on the processing

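With the replicate block the counts of called genes (higher and lower) were 36 and 1 for siHsp90aa1 and 0 and 43 for siHsp90ab1 in NF, 45 and 1 directly, 0 and 22 for TGFb1, and 1 and 46 for CAF against NF. In CAF they were 7 and 1 for siHsp90aa1, 0 and 0 for siHsp90ab1 and 18 and 2 directly, and for the interactions 0 and 7 (siHsp90aa1) and 1 and 0 (siHsp90ab1). Over all tested genes, both directions together, the block raised the calls in every comparison. In NF they rose from 4309 to 5681 for siHsp90aa1, 409 to 902 for siHsp90ab1, 5201 to 6420 directly and 4410 to 5542 for TGFb1. For CAF against NF they rose from 9378 to 10098. In CAF they rose from 3867 to 5198 for siHsp90aa1, 137 to 360 for siHsp90ab1 and 4006 to 5412 directly. For the interactions they rose from 832 to 1871 and from 1 to 3. With only the groups compared, siHsp90aa1 in CAF called 3 higher and the direct CAF comparison 4 higher. DESeq2 called 2 lower for siHsp90aa1 in CAF, 8 lower for the siHsp90aa1 interaction and 5 higher for the siHsp90ab1 interaction, and the table without a low-count filter 1 lower in the direct CAF comparison. Leaving out each library gave ranges, in NF, of 19 to 30 higher and 0 to 1 lower for siHsp90aa1, 17 to 34 lower and 0 to 0 higher for siHsp90ab1, 44 to 44 higher and 0 to 1 lower directly, and 12 to 19 lower for TGFb1. In CAF the ranges were 1 to 8 higher and 1 to 3 lower for siHsp90aa1, and 3 to 20 higher and 1 to 2 lower directly. They were 3 to 9 lower for the siHsp90aa1 interaction, and 0 to 1 higher for the siHsp90ab1 interaction. Over all tested genes the totals were 2911 to 3801 for siHsp90aa1 and 157 to 329 for siHsp90ab1 in NF. Directly in NF they were 3841 to 4700, and for TGFb1 3329 to 4291. In CAF the totals were 2460 to 4426 for siHsp90aa1 and 2478 to 4285 directly. For the interactions they were 453 to 951 and 0 to 2. The siHsp90aa1 interaction gave 9 lower without the first siHsp90aa1 CAF library and 3 without the second, the first siHsp90aa1 NF or the third siCtr NF library with TGFb1. Parp11 lost its siHsp90ab1 interaction without the first siHsp90ab1 CAF, the first or second siCtr CAF, the second or the third siHsp90ab1 NF, or the first siCtr NF library with TGFb1, and Trim25 its siHsp90aa1 call in NF without any siHsp90aa1 NF library or the first or second siCtr NF library with TGFb1. Called in every alternative were 19 of 30 genes for siHsp90aa1 and 16 of 35 for siHsp90ab1 in NF, 44 of 45 directly, 12 of 17 for TGFb1, 2 of 6 for siHsp90aa1 in CAF, 4 of 14 directly, and 3 of 5 and 0 of 1 for the interactions. The causes were not tested. Depth limits genes near 0 in CAF (Trim30d, Tnfsf10, Mx1) and Ifnb1.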
